A study of Magallana angulata with 3 samples.

Results

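The genes described here were moderately abundant in oyster adductor muscle and had nearly equal deposited values in every library. A gene was taken when its mean over the 3 libraries was at least 100 and under 1000 RPKM (reads divided by the length of the gene and the total of the library) and its largest value was at most 1.3 times its smallest. By this rule 154 of 28027 listed genes were members. The same values chose them, so their evenness is the choice itself and is given as a description, without a test. Beside them stand the other 738 of the 892 genes in this level range.

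The libraries were made from adductor muscle of the Fujian oyster (Magallana angulata), a bivalve that closes its shell with this muscle. Library T came from triploid oysters, made by keeping the second polar body with a chemical, and libraries DM and DF came from diploid crosses of the same parents. All animals shared temperature and food for 1 year, per the labels' protocols. The labels explain neither the letters M and F nor the number of animals in a library, and each label has 1 library, so ploidy, the letters and the single preparation cannot be told apart.

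Adductor muscle of oysters combines a fast part that snaps the shell shut and a slow smooth part that holds it closed with little energy, known as catch. Triploid oysters are grown because their gonads stay small and their meat keeps its quality through the spawning season. Genes with steady RNA levels matter in such a comparison as reference genes, against which the levels of other genes are read. Whether a gene counts as steady depends on the scale, because RPKM is a share of each library, and a few very abundant transcripts in 1 library lower every other share there.

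The files pair the identifiers with no gene names, and 0 of 28027 identifiers were found in the species' RefSeq gene table, so functions, positions and sequences of the members are not given. The word muscle in their description therefore rests on the tissue label, and no muscle or blood cell marker could be checked. The read totals recovered from the values were 2137859 in T, 2057805 in DM and 1805591 in DF. A single transcript, CGI_10018876, took 23.9% of the reads in T, 33.8% in DM and 17.6% in DF.

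As deposited, the 154 genes had nearly the same median level in the 3 libraries. Their median was 194 RPKM in T (91.8 to 952), 194 in DM (90.0 to 944) and 204 in DF (90.9 to 1009). Together they took 3.54% of the reads in T, 3.63% in DM and 3.64% in DF. The other 738 genes of the range took 15.2% of the reads in T, 13.2% in DM and 17.2% in DF. As these are bulk samples, fewer cells of a type and less RNA per cell cannot be told apart in any of these values. The rule selected 17.3% of the 892 genes in the range, against 7.12% of the 14402 genes averaging at least 1 RPKM. Taken pair by pair, T and DM lay within 1.3-fold in 38.2% of the 892 genes, T and DF in 48.5% and DM and DF in 36.5%.

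**Figure D1:**
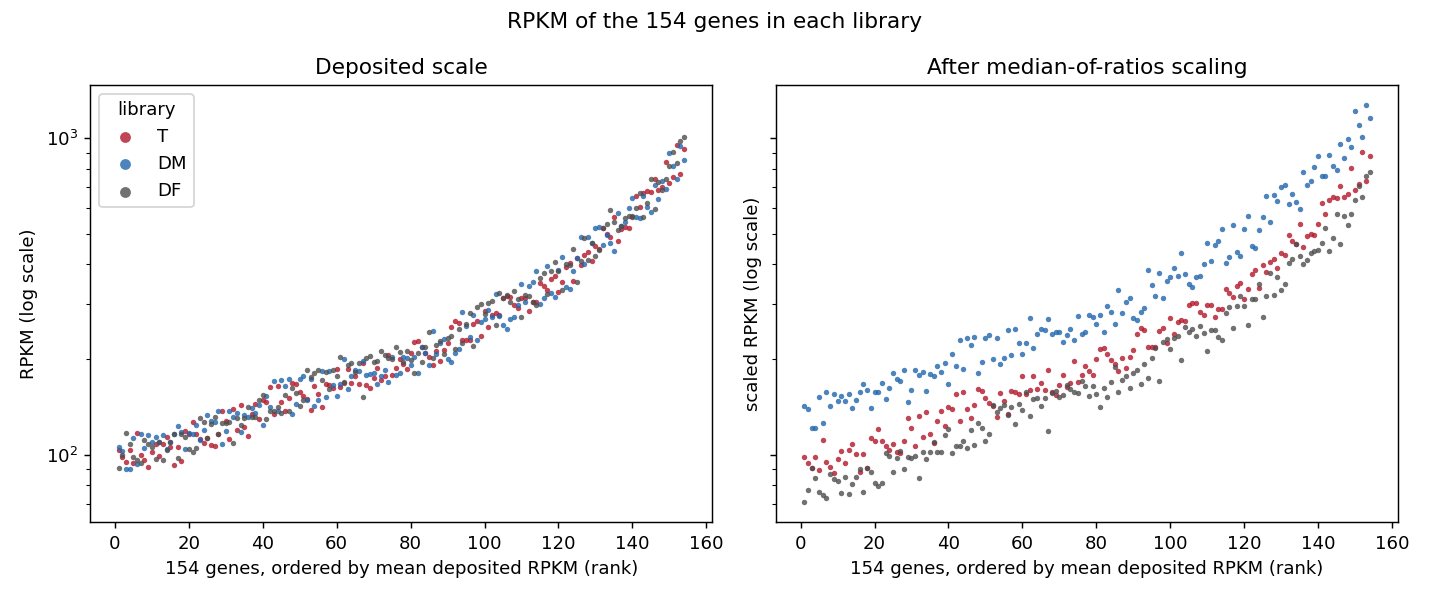
RPKM (log scale) of the 154 genes in T, DM and DF, ordered by their mean deposited RPKM, as deposited (left) and after median-of-ratios scaling (right); each point is 1 gene in 1 library. The 3 libraries overlap on the left, while on the right DM lies above T and DF for all 154 genes.

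The most even members differed by less than reads can resolve. Among members with at least 100 reads in every library, CGI_10021194 had the smallest spread, with 517 RPKM in T, 528 in DM and 529.9 in DF, from 179, 176 and 155 reads. Its largest value was 1.03 times its smallest, with a nominal 95% counting interval of 0.821 to 1.28. CGI_10022901 followed with 177 RPKM in T, 185 in DM and 183 in DF, a ratio of 1.04 (0.866 to 1.26). In both genes the interval holds 1, so that no order of the 3 libraries is resolved. CGI_10015984 had 98.7 RPKM in T, 103 in DM and 99.8 in DF, again a ratio of 1.04 (0.903 to 1.21). These intervals are Clopper-Pearson intervals on recovered reads and leave out differences between animals and preparations. The largest and smallest library were picked from the same reads, which the intervals do not allow for.

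A small ratio from few reads and a ratio held down by many reads are different things. The member with the most reads, CGI_10003110, had 565 RPKM in T, 648 in DM and 569.97 in DF, from 3193, 3525 and 2720 reads. Its ratio of 1.15 had an interval of 1.09 to 1.204, which leaves out 1 and stays under 1.3. DM stood above both other libraries in this gene, by 1.14-fold over DF (1.08 to 1.196), while T over DF was 0.991 (0.942 to 1.04). At the other end, CGI_10021124 had 48 reads in T, 49 in DM and 36 in DF, or 108 RPKM, 115 and 96.3. Its ratio of 1.19 carried an interval of 0.761 to 1.89, so for this gene a difference beyond 1.3-fold was not excluded at this depth.

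Across the 154 genes, 27 had an upper counting limit of the ratio at or under 1.3. Genes of the range outside the members cannot pass, since their ratios are already above 1.3. The same 27 are thus the 3.03% of the 892 genes of the range that pass. These 27 rested on a median of 1963 reads over the 3 libraries, and the other 127 members on 777. An upper limit above 1.3 can come from few reads or from a ratio near 1.3, as in CGI_10006272 with 7152 reads and a ratio of 1.27 (1.197 to 1.35). Those with the lowest upper limits, named after their values were seen, were CGI_10022004 and CGI_10017178. CGI_10022004 had 523 RPKM in T, 544 in DM and 559.8 in DF, a ratio of 1.07 (1.01 to 1.14). In CGI_10017178 the values were 213 RPKM in T, 208 in DM and 221 in DF, a ratio of 1.06 (0.977 to 1.16).

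Within the limit, the members still differed from each other in the order of the libraries. The ratio was at most 1.1 in 20 members and at most 1.2 in 80, with a median of 1.19. In 69 members (44.8%) the intervals of all 3 pairs of libraries held 1, against 8.63% of the 892 genes of the range. Among the other 738 genes they did so in 8 (1.08%). For T over DM, the interval lay above 1 in 19 members and below 1 in 34, against 45.4% and 24.9% of the range. For T over DF it lay above 1 in 14 and below 1 in 27, against 18.4% and 46.6%. For DM over DF it lay above 1 in 25 and below 1 in 30, against 21.2% and 55.8%. Shares of members were far under the range for T over DM above 1, at 12.3%. The same held for T over DF and DM over DF below 1, at 17.5% and 19.5%. Shares in the opposite directions lay nearer to the range, at 22.1%, 9.09% and 16.2%. The rule used these same contrasts, so shares under the range follow from it. It likewise favours members whose 3 intervals all hold 1. These comparisons share libraries.

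The triploid library was the highest in 34 members (22.1%), DM in 57 (37.0%) and DF in 63 (40.9%). In the range these shares were 25.4%, 21.6% and 52.9%. T was the lowest in 55 members (35.7%), DM in 59 (38.3%) and DF in 40 (26.0%). The shares were 28.3%, 56.5% and 15.2% in the other 738 genes. Against 45.5% of those other genes, T lay between the diploid libraries in 65 members (42.2%). The median log2 difference was -0.04 for T minus DM, -0.04 for T minus DF and -0.04 for DM minus DF. In the other 738 genes of the range, over the 725 above 0 in every library, these medians were 0.37, -0.33 and -0.54. The median difference of DM from DF was thus below 0 in both sets and smaller in the members, whose differences the limit of 1.3 bounds.

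The most abundant members differed in which library was highest and which lowest. CGI_10026239, with the highest mean, had 925 RPKM in T, 856 in DM and 1009 in DF, and its ratio was 1.18 (1.08 to 1.29). It was also the member nearest the upper level limit. CGI_10006272 had 771 RPKM in T, 944 in DM and 979 in DF, and T was lower than DM by a factor of 0.817 (0.771 to 0.865). CGI_10004572 had 952 RPKM in T, 746 in DM and 838 in DF, and T was 1.28-fold higher than DM (1.16 to 1.40). The first was highest in DF with T in the middle, the second had T as the lowest library and the third had T as the highest.

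No gap separated the members from their neighbours. Ratios above 1.2 and up to 1.3 were found in 74 genes of the range, and ratios above 1.3 and up to 1.4 in 87. The member nearest the limit, CGI_10026395, had 142 RPKM in T, 184 in DM and 172 in DF. Just outside, CGI_10020241 had 438 RPKM in T, 337 in DM and 375 in DF, and its interval of 1.03 to 1.64 covers the limit. At the lower level limit, CGI_10026072 was a member with a mean of 100.06 RPKM, while CGI_10027605, with 107 RPKM in T, 91.3 in DM and 102 in DF, fell short at a mean of 99.9. At the upper limit the nearest even gene outside was CGI_10000304 with a mean of 1021 RPKM. Of the 154 members, 138 had every value from 100 to under 1000 RPKM.

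**Figure D2:**
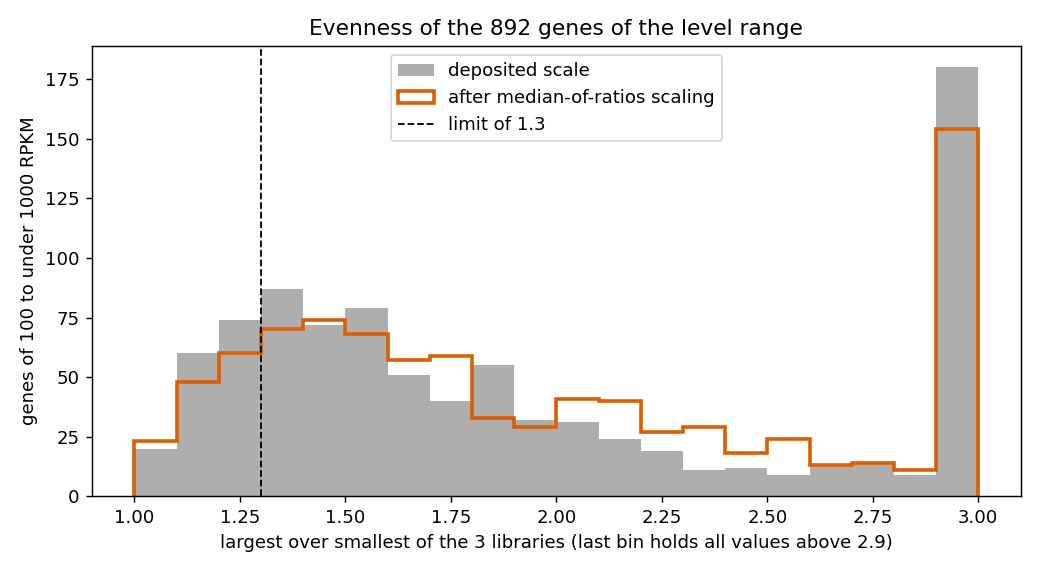
Ratio of the largest to the smallest of the 3 libraries for the 892 genes with a mean of 100 to under 1000 RPKM, on the deposited scale and after median-of-ratios scaling. On both scales the count passes through the limit of 1.3 (dashed) without a gap: 154 genes lie within it as deposited and 131 after scaling.

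The members were then followed through median-of-ratios scaling, which divides each library by the median, over genes above 0 in all 3 libraries, of the ratio to the geometric mean of the gene. Over 13987 genes the factors were 1.051 for T, 0.740 for DM and 1.29 for DF. After this scaling 0 of the 154 genes stayed within 1.3-fold, against 14.7% of the 892 genes of the range. Their ratios ran from 1.34 to 2.26 with a median of 1.69. DM became the highest library in all 154 genes, and the lowest was DF in 142 and T in 12. The count of 0 is fixed by arithmetic: the factors of DF and DM differ by 1.74, more than the 1.69 (1.3 times 1.3) that a gene within the limit on both scales could absorb. The place of DM is fixed likewise, since its factor lies more than 1.3-fold below both others.

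What the scaling does to a member is the same for every member, but where it lands depends on its order beforehand. CGI_10021194, the most even as deposited, had 492 scaled RPKM in T, 714 in DM and 412 in DF, a ratio of 1.73. CGI_10009754 had the largest ratio after scaling, 2.26, with 186 scaled RPKM in T, 268 in DM and 119 in DF. As deposited it had 195 RPKM in T, 198 in DM and 153 in DF, with DF the lowest. CGI_10010923 reached 2.24 and CGI_10025810 reached 2.22, and in both DM was the highest and DF the lowest already as deposited.

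The genes that came closest to holding on both scales were those lowest in DM as deposited. The factors favour this, since the scaling raises DM against T and DF in every gene. CGI_10006540, named after its values were seen like the next gene, had 366 RPKM in T, 314 in DM and 407 in DF. After scaling it had 348 in T, 424 in DM and 317 in DF, and its ratio was 1.34, against 1.297 as deposited. CGI_10009235 had 95.1 RPKM in T, 90.0 in DM and 117 in DF, and ratios of 1.34 after scaling and 1.297 as deposited. These were the only members within 1.3-fold under 6 of the 7 scalings tried. No member was within it under all 7.

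**Figure D3:**
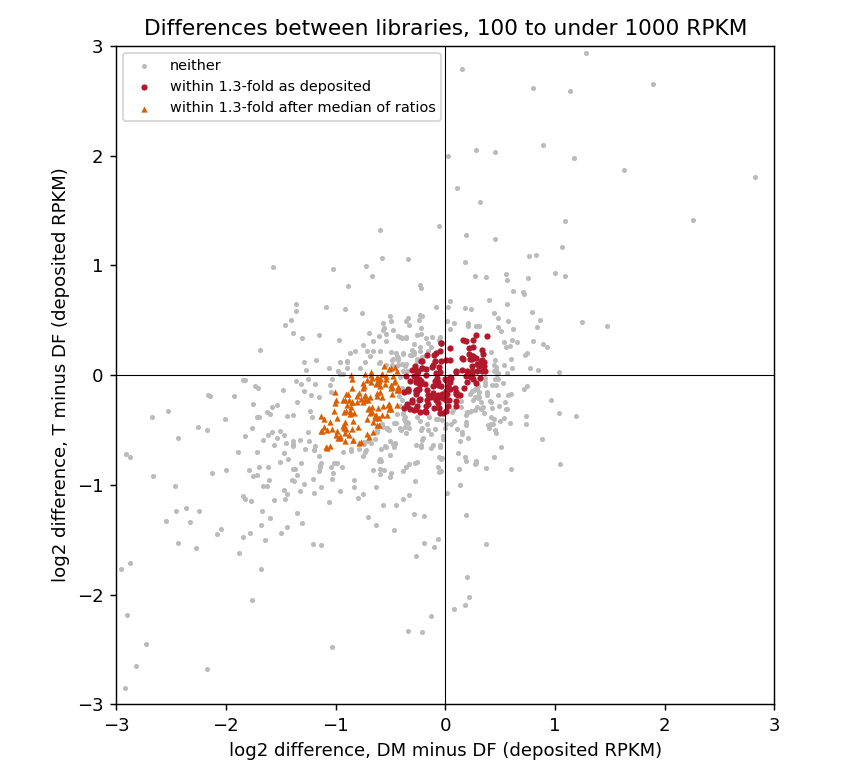
Log2 differences of deposited RPKM, DM minus DF (x) and T minus DF (y), for genes with a mean of 100 to under 1000 RPKM; 827 of the 892 genes are drawn, 52 lie beyond the axes and 13 are at 0 in a library. The 154 genes within 1.3-fold as deposited surround the origin. The 130 within 1.3-fold after median-of-ratios scaling lie to its left with no gene in common, as the scale factors require.

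How many members held depended on how far each scaling moved DM against DF. Equal sums of RPKM, with factors of DF and DM that differ by 1.07, left 133 of the 154 within 1.3-fold, against 18.3% of the range. Factors from the median over genes of 100 to under 1000 RPKM alone differed by 1.32 and left 76, against 19.5%. With the 20 most abundant genes left out of the sums, the factors differed by 1.42 and 46 members held, against 20.1%. Medians over genes averaging 50 reads or more differed by 1.49 and left 40 members, against 20.1%. The trimmed mean of M-values, a weighted mean of log ratios without the extremes, differed by 1.67 and left 2, against 15.8%. The share of the whole range that was even thus stayed between 14.7% and 20.1% under the 6 scalings while the members among them changed.

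**Figure D4:**
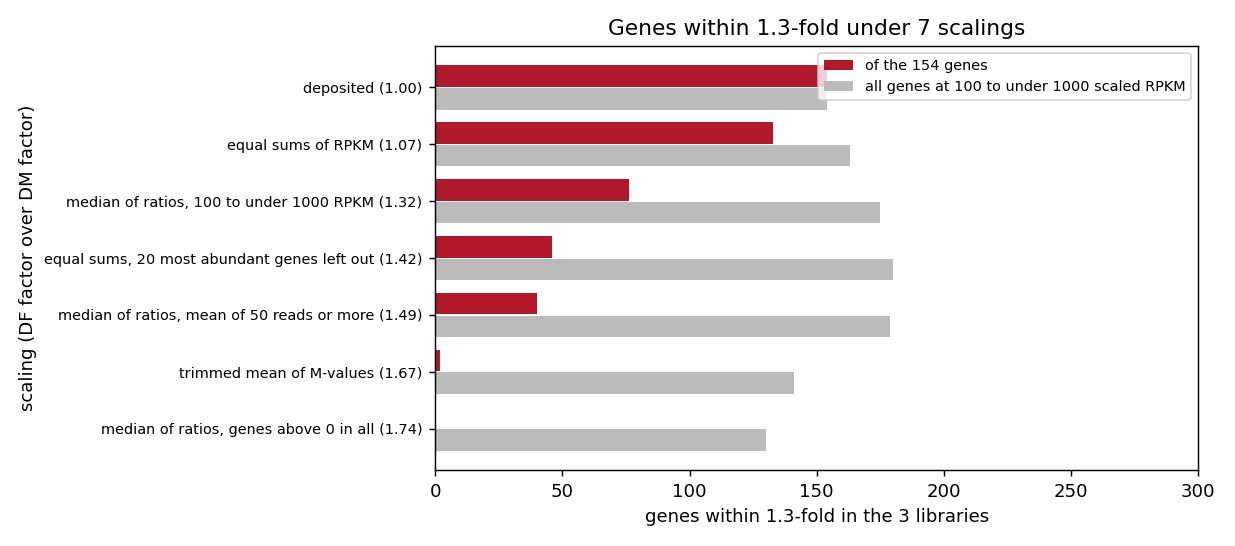
Number of genes within 1.3-fold in T, DM and DF under 7 scalings, ordered by the factor of DF over that of DM (in brackets): the 154 genes chosen on the deposited scale (red) and all genes with a scaled mean of 100 to under 1000 RPKM (grey). Red falls to 0 after median-of-ratios scaling, while grey stays between 130 and 180.

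After median-of-ratios scaling 130 other genes took the place of the members, 14.6% of the 892 genes with a scaled mean in the range. They share 0% with the 154 members, counted from either list. As deposited all 130 were lowest in DM, which is fixed by the factors, since that of DM lies more than 1.3-fold below both others. In the range as deposited, 52.9% of genes were highest in DF and 25.4% in T. The factors favour DF among the 130, since that of DF (1.29) lies above that of T (1.051). Of the 130 genes, 119 were highest in DF and 11 in T as deposited. The one with the most reads, CGI_10022978, had 1020.2 RPKM in T, 637 in DM and 1284 in DF as deposited, and 971 in T, 860.4 in DM and 998 in DF after scaling. CGI_10028812 had 308 RPKM in T, 249 in DM and 338 in DF, a ratio of 1.36 that fell to 1.28 after scaling. CGI_10019706 had 984 RPKM in T, 694 in DM and 1012 in DF, and scaled values of 936 in T, 937 in DM and 786 in DF. Both lists rest on the same 3 libraries, and which scale is closer to RNA per cell was not tested.

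Coding length was not used by the rule, apart from its part in RPKM. Recovered lengths of the 154 members had a median of 709.5 nt (102 to 5172), against 586.5 nt (60 to 6009) in the other genes of the range. Of genes under 300 nt 10.4% were members (16 of 154), of those from 300 to under 600 nt 16.6% (48 of 290), of those from 600 to under 1200 nt 19.0% (54 of 284) and of longer ones 22.0% (36 of 164). At equal RPKM longer genes have more reads, with medians of 246, 515, 990.5 and 1682.5 in these classes. Among genes with 400 to under 1600 reads the shares were 13.0% (6 of 46), 19.2% (30 of 156), 19.3% (40 of 207) and 24.7% (19 of 77). After median-of-ratios scaling, 18.2% of the shortest class, 14.8% and 15.8% of the middle classes and 9.15% of the longest were within 1.3-fold. This order did not hold at every level. At 10 to under 100 RPKM the scaled shares rose with length, at 8.69%, 9.58%, 14.1% and 16.4%. At 1000 RPKM or more they fell over the 3 shorter classes, at 37.5%, 30.5% and 21.7%.

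The library shift itself moved with length in this level range. The median log2 difference of DM minus DF was -0.70 in genes under 300 nt, -0.38 in both middle classes and -0.07 in genes of 1200 nt or more. For T minus DM the medians were 0.46, 0.24, 0.17 and -0.03, and for T minus DF they stayed between -0.28 and -0.17. Among genes with 400 to under 1600 reads, DM minus DF went from -0.57 in the shortest class to -0.22 in the longest. The median deficit of DM was thus larger in short genes of this level than in long ones. The part of length or reads in the members' evenness was not tested.

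**Figure D5:**
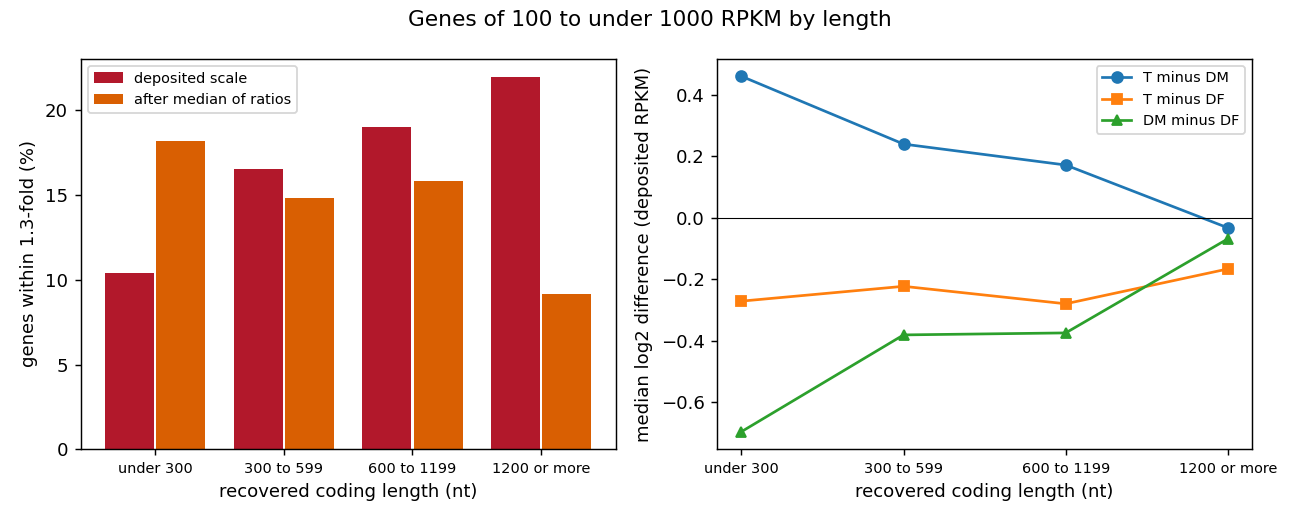
Genes with a mean of 100 to under 1000 RPKM in 4 classes of recovered coding length: share within 1.3-fold (left) and median log2 difference between libraries (right). The share rises with length as deposited, to 22.0% from 10.4%, and is lowest in the longest class after scaling, while DM minus DF moves to -0.07 from -0.70.

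The share of even genes was also set out by level. Members made up 16.5% of genes from 100 to under 200 RPKM (78 of 474), 18.8% from 200 to under 400 (47 of 250) and 17.3% from 400 to under 1000 (29 of 168). By the same limit, 4.50% of genes from 1 to under 10 RPKM and 9.33% from 10 to under 100 RPKM were even as deposited, with median reads of 22 and 126. At 400 to under 800 reads the share was 20.1% in the range and 14.1% at 10 to under 100 RPKM. In the same order, the shares were 19.0% and 25.4% (30 of 118) at 800 to under 1600 reads. They were 11.3% and 7.43% under 200 reads, and 9.94% and 11.7% at 200 to under 400. With 1600 reads or more they were 19.3% and 36.4% (8 of 22). The order of the level ranges thus differed between these read classes.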

How the data were processed

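The authors deposited RPKM values for 28027 genes in 3 libraries; the unit is taken from the file names, and the values fit it. The submitters' processing notes name TopHat, while the counting program, genome build and annotation were not given in the sources used here. Per the labels' protocols, poly(A) RNA was taken with oligo(dT) and prepared with an Illumina gene expression kit.

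Read totals were searched as whole numbers for which the lowest values give 1 to 3 reads of a gene whose length is a multiple of 3 nt. Of 36 candidate sets, 12 gave whole reads in every gene without exceeding any total. Among these the set was kept whose reads reached the largest share of the totals. In it all 19931 genes above 0 had whole reads (within 0.001), as the choice required, summing to 97.5% to 98.0% of the totals. Reads and lengths are lower limits, since a common factor cannot be seen. The 95% intervals cover counting error only. For the ratio of largest to smallest they treat the pair of libraries as fixed beforehand, so 95% is nominal there. With 1 library per label there is no replicate error and no p-value. The trimmed mean dropped 30% of log ratios and 5% of levels at each end. Scripts ran in Python 3.11.15 with numpy 2.4.6 and scipy 1.17.1 and were tested on simulated data.

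The members, the lists and the rule for named genes were chosen with earlier results of these data known. That rule took the most abundant, most even, most and least read members, those at each limit, and those least even after scaling. It also took the most read genes outside the members that became even after scaling. Members that stayed even after scaling were asked for too, but there were none. Lists of ribosomal, contractile, metabolic and cell type genes, set down as product names, were not used because no identifier has a name here.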

Additional observations from a re-analysis of the deposited data

How the results depend on the processing

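The count of even genes as deposited was 154. A limit of 1.2 gave 80 genes and a limit of 1.5 gave 313, and the level limits left out gave 1144. Requiring the upper counting limit to be at most 1.3 left 27. With 1 library left out fewer values had to match, and the counts ran from 316 without DF and 334 without T to 454 without DM. The other 9 settings stayed between 130 and 180 genes, but a like count did not mean like genes: with the level taken from reads over the library total, not divided by length, 166 genes were even and 101 of them were members (60.8% of that list and 65.6% of the members).

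The count of members within 1.3-fold after median-of-ratios scaling was 0. It was 133 with equal sums of RPKM, 46 with equal sums without the 20 most abundant genes, 76 with medians over genes of 100 to under 1000 RPKM (a setting added after seeing the data), 40 with medians over genes averaging 50 reads or more and 2 with the trimmed mean. A limit of 1.5 gave 38. Leaving out 1 library gave 0 to 117: 117 without DM, 42 without DF and 0 without T. A limit of 1.2 and a pseudocount of 1 left it at 0. With the limit of 1.2 no other count was possible, by the arithmetic given for the members. Of 119 recomputed ratios of the 17 named members, 50 lay within the counting interval of the deposited ratio and 69 outside it. Of the 154 members, 127 had an upper counting limit above 1.3, on 133 to 8306 reads, so that depth alone does not set which members pass it. No paired analysis was possible because there is 1 library for each of T, DM and DF, with no numbers to pair.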

Other observations

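Above the level range, 20 of the 138 genes averaging 1000 RPKM or more (14.5%) were also within 1.3-fold as deposited, against 17.3% in the range. DM was the highest library in 11 of the 20, DF in 6 and T in 3. Like counts over all 138 genes are not given here, so these describe the 20 alone. The most abundant of the 20, CGI_10006807, chosen after its values were seen, had 39469 RPKM in T, 44922 in DM and 36479 in DF. Its reads separated all 3 libraries: T over DM was 0.879 (95% counting interval 0.868 to 0.890), T over DF 1.08 (1.07 to 1.097) and DM over DF 1.23 (1.21 to 1.248). The intervals of all 3 pairs held 1 in 1 of the 20 genes, and 0 of the 20 stayed within 1.3-fold after median-of-ratios scaling, for the reason of arithmetic given for the members.

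Of the members, 2 pairs had consecutive identifier numbers, as had 76 pairs among the 892 genes of the range. A smaller set holds fewer such pairs for each gene, so these counts cannot be compared directly. The files do not say whether consecutive numbers are neighbours in the genome.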
